A study of Homo sapiens with 6 samples.

Results

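The mitochondrial ribosomal protein genes were taken as every protein-coding row of the table whose symbol is MRPL or MRPS followed by a number, which gave 76 of 57905 gene identifiers, 48 of the large subunit (MRPL) and 28 of the small subunit (MRPS). The members were chosen by symbol, and the family was put forward because MRPL17 fell strongly in these same libraries. The contrast between miR-19a and miR-NC is therefore given for the members as a description, and the fall of MRPL17 carries no p-value. The cells were A549, an established line from a human lung adenocarcinoma. In 3 samples they received the microRNA miR-19a at 25 nM with a lipid reagent (Lipofectamine), and in the other 3 the same concentration of miR-NC, a negative control microRNA; cells were harvested at 24 h by the labels. Poly(A)-selected RNA was sequenced as paired reads of 150 nt. The labels give one cell line, no untransfected sample and no measure of miR-19a uptake, and whether samples of a group came from separate cultures is not stated.

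The mitochondrial ribosome translates the messenger RNAs encoded in mitochondrial DNA, all of which specify subunits of the respiratory chain and ATP synthase. Its ribosomal RNAs come from mitochondrial DNA, whereas its proteins are encoded in the nucleus, made in the cytosol and imported. Some of these proteins have counterparts in bacterial ribosomes and others are specific to mitochondria. A microRNA lowers messenger RNAs mainly by pairing of its seed, bases 2 to 8, with sites in the 3′ UTR.

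The mature sequence of the microRNA and the seed matches in the 3′ UTRs of the family are shown because they mark which members hold letters complementary to the seed. The labels name no arm, and the 3p arm was used (RefSeq, GRCh38.p14, chr13:91350939-91350961, plus strand). In it the capitals mark the seed.
miR-19a-3p: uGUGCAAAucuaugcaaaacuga
The classes searched on the transcript strand were the 8mer TTTGCACA, the 7mer-m8 TTTGCAC, the 7mer-A1 TTGCACA and the 6mer TTGCAC, each gene being put in its strongest class, since the shorter motifs lie within the longer ones. The windows of 30 nt below come from GENCODE v29 transcripts on GRCh38 (transcript with the longest coding sequence), and the capitals mark the match.
MRPL17 8mer: ggggagccagatgaccctctcTTTGCACAa
MRPL35 8mer, first: gaagttggggagaaggatactTTTGCACAg
MRPL35 8mer, second: aaatgatggaccaaacgtctgTTTGCACAa
MRPL50 7mer-A1: atatctaagatagagttatgcaTTGCACAt
MRPL28 7mer-m8: cccagctttccctgccaggcccTTTGCACt
MRPS25 7mer-A1: gataacatgttcttaattttacTTGCACAa
MRPL30 7mer-A1: taatttggcctaaactttattaTTGCACAc
The MRPL17 window lies at chr11:6681958-6681987 (minus strand), where the match starts at base 152 of a UTR of 1336 nt. The windows of MRPL35 lie at chr2:86212528-86212557 and chr2:86213669-86213698 (plus strand), at bases 1881 and 3022 of 3126, and a 6mer stands at base 594. The MRPL50 window is chr9:101390082-101390111 (minus strand, base 377 of 2833), that of MRPL28 chr16:367614-367643 (minus strand, base 54 of 706), that of MRPS25 chr3:15049985-15050014 (minus strand, base 2449 of 3923) and that of MRPL30 chr2:99196893-99196922 (plus strand, base 1210 of 1921). A match is a run of letters in the annotated UTR and not a measured binding site.

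Members with such a match were few. Of the 75 members that passed the filter for testing (a mean FPKM of at least 1, where FPKM is fragments per kilobase of transcript, scaled for library size), 5 (6.67%) had a 7mer or 8mer in the 3′ UTR, against 18.4% of the 10566 tested genes with an annotated 3′ UTR. For the 8mer the shares were 2.67% of members and 5.98% of tested genes. The members' 3′ UTRs were short, with a median of 313 nt against 984 nt over all tested genes. The coding sequences held a 7mer or 8mer in 5 members (MRPS7, MRPS30, MRPS18B, MRPS35 and MRPS11), or 6.67%, against 14.4% of tested genes. With the longest annotated 3′ UTR of each gene in place of that of the transcript with the longest coding sequence, MRPL42 gained an 8mer and MRPL27 a 7mer-m8.

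**Figure D1:**
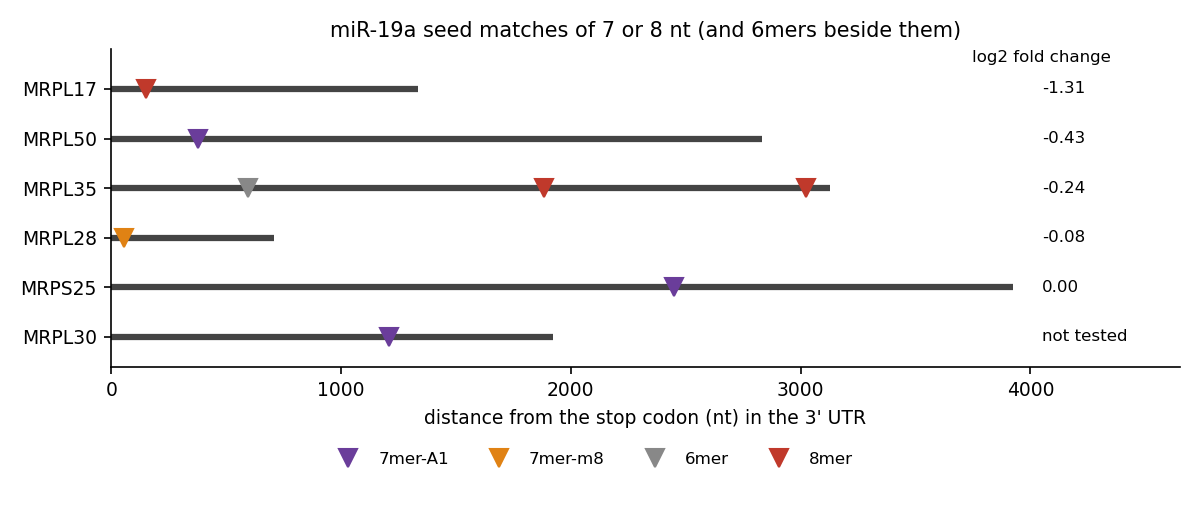
Positions of miR-19a seed matches along the annotated 3′ UTRs (grey bars, distance from the stop codon in nt) of the 6 members with a 7mer or 8mer, coloured by class, with the log2 fold change of miR-19a over miR-NC at the right. The matches of MRPL28 and MRPL17 lie nearest to the stop codon, at bases 54 and 152. The fold changes run from -1.31 for MRPL17 to 0.00 for MRPS25, with MRPL28 at -0.08 and MRPL30 not tested.

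MRPL17 (ENSG00000158042, chr11:6680782-6683401, minus strand) encodes a large-subunit protein with a bacterial counterpart that lies near the exit tunnel for the new peptide. It had 37.4, 35.8 and 35.5 CPM (normalised counts, scaled by library size and edgeR's TMM factors) in the miR-19a libraries and 92.2, 80.8 and 96.2 CPM in the miR-NC libraries. The groups were far apart, every miR-19a library lying well under the lowest miR-NC library. The means were 36.2 ± 1.04 CPM with miR-19a and 89.7 ± 7.99 CPM with miR-NC (SD, n = 3 each), so 40.4% of the miR-NC level was left, a log2 fold change of -1.31 (SE 0.058) from edgeR's quasi-likelihood fit. Over the 15 alternative settings and left-out libraries the value lay between -1.38 and -1.26. In order of log2 fold change MRPL17 was the 54th lowest of the 12452 tested genes and the 9th lowest of the 632 tested genes with an 8mer. No other annotated gene overlaps it.

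**Figure D2:**
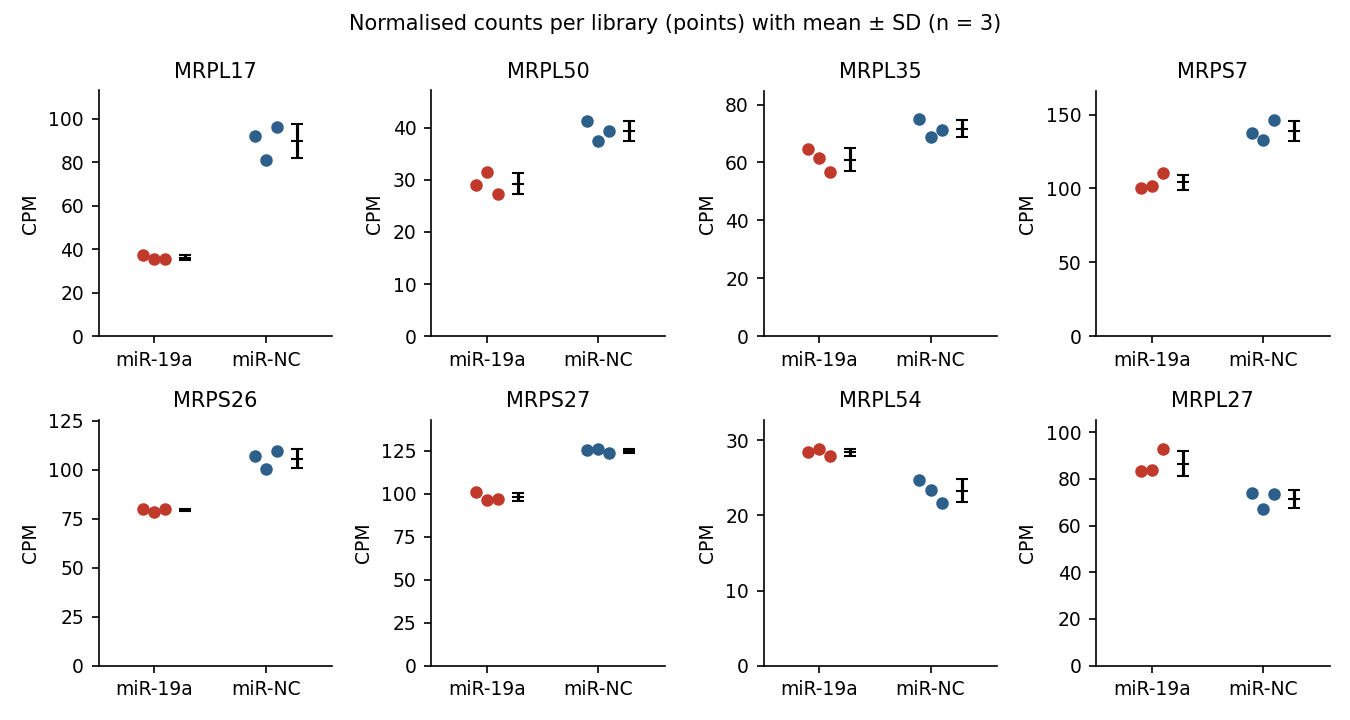
Normalised counts (CPM, axes from 0) of 8 members in each miR-19a library (red) and each miR-NC library (blue), with mean ± SD (n = 3) beside the points. MRPL17 stands near 36.2 CPM with miR-19a and 89.7 CPM with miR-NC, the other falls are smaller, and MRPL54 and MRPL27 are higher with miR-19a.

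Apart from MRPL17, the members moved little. Of the 75 tested members, 18 were lower and 10 higher with miR-19a at an adjusted p under 0.05 (edgeR, Benjamini-Hochberg over all tested genes), and 47 did not pass. That is 37.3% called, whereas 48.4% of all tested genes were called, 23.5% lower and 24.9% higher. The 18 include MRPL17. With it left out, 17 of 74 members were lower and 10 higher (36.5% called). The median log2 fold change was -0.04 over the members and -0.00 over all tested genes. MRPL17 alone lay beyond 0.5 on the log2 scale in either direction (1.33% of members), where 13.6% of all tested genes did, and the other members lay between -0.43 and 0.28. The next lowest member after MRPL17 was 0.88 higher on that scale. The 3 miR-19a libraries lay wholly below the miR-NC libraries for 19 members and wholly above for 14, together 44% of members against 54% of all tested genes. Since the family was selected on this contrast, these counts only sort the members.

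**Figure D3:**
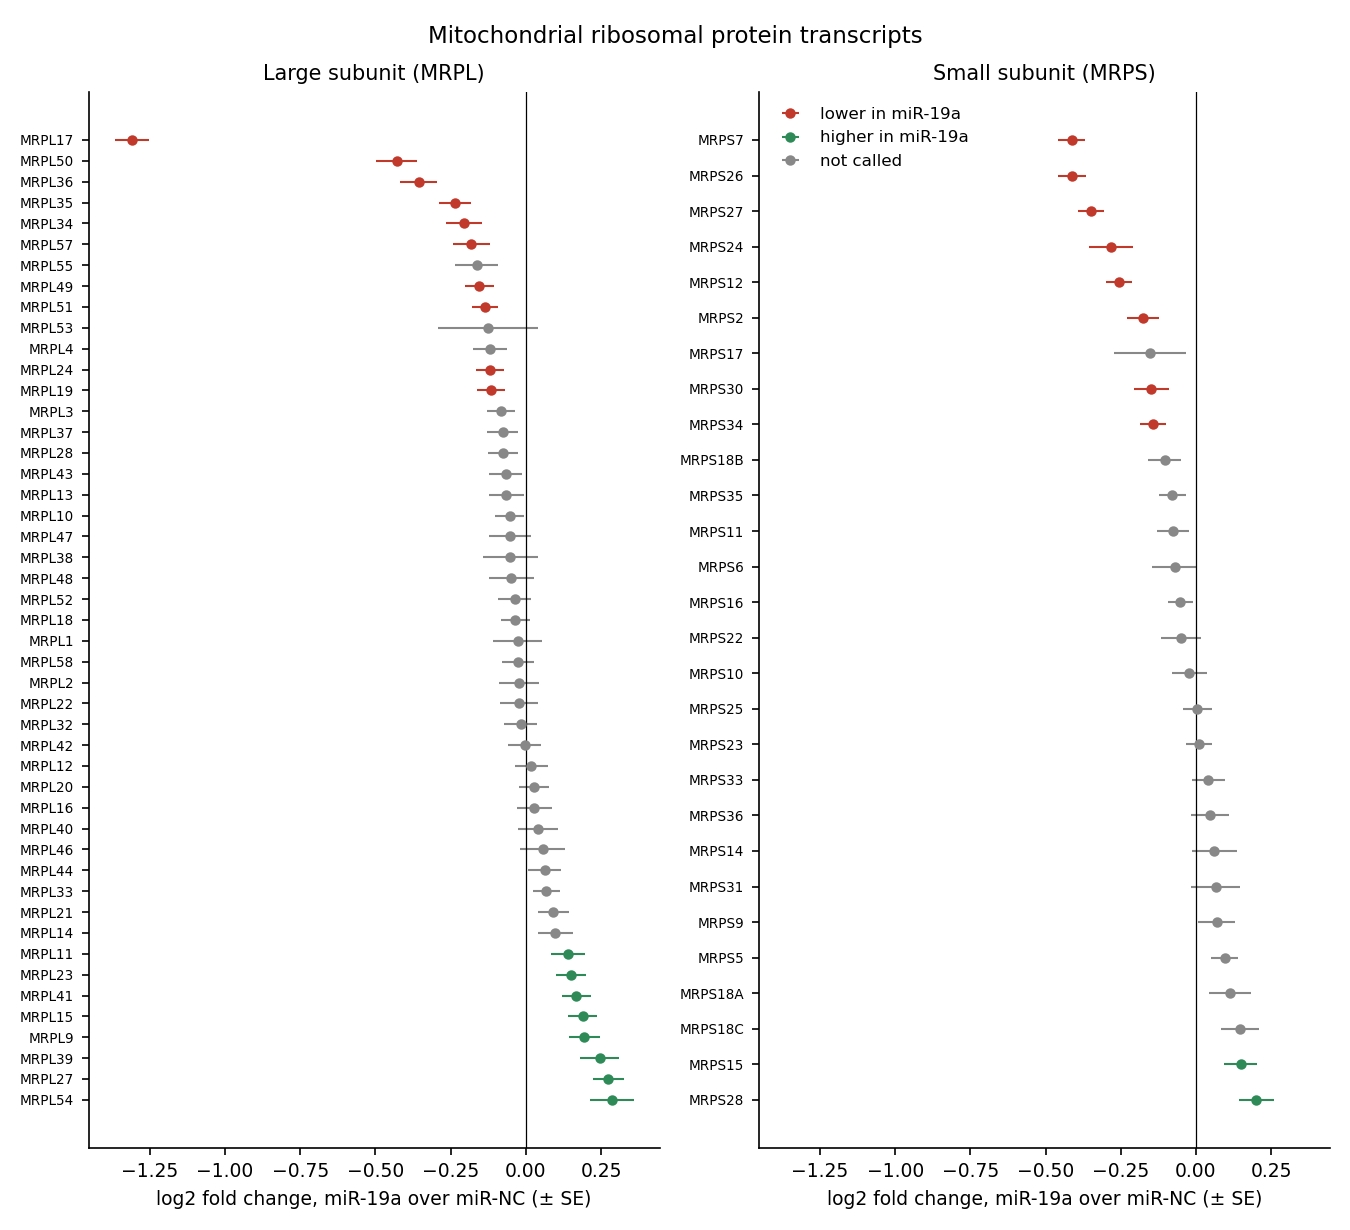
Log2 fold change of miR-19a over miR-NC (± SE) for each tested member, large subunit at the left and small subunit at the right, coloured by call. MRPL17 is set apart at -1.31, while the other members form a continuous run from -0.43 to 0.28.

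In the large subunit, the lower members after MRPL17 were MRPL50, MRPL36, MRPL35 and MRPL34. MRPL50, a mitochondria-specific protein, had 28.97, 31.4 and 27.3 CPM with miR-19a and 41.3, 37.4 and 39.4 CPM with miR-NC, a log2 fold change of -0.43 (SE 0.067). Its groups did not overlap, and its 3′ UTR holds the 7mer-A1 shown above. MRPL36, the counterpart of a small bacterial protein, had 37.0, 37.6 and 40.7 CPM with miR-19a against 52.7, 44.0 and 50.9 CPM with miR-NC (log2 fold change -0.36, SE 0.063). The lowest miR-NC library, replicate 2, still lay above all miR-19a libraries. MRPL35, which carries both 8mers, had 64.5, 61.5 and 56.7 CPM with miR-19a and 74.8, 68.9 and 71.3 CPM with miR-NC (log2 fold change -0.24, SE 0.054). MRPL34 had 41.9, 42.2 and 44.3 CPM with miR-19a and 53.1, 46.1 and 48.9 CPM with miR-NC, a log2 fold change of -0.21 (SE 0.060) that lost its call without miR-NC 1 (-0.15). The other lower large-subunit members were MRPL57, MRPL49, MRPL51, MRPL24 and MRPL19, with log2 fold changes from -0.18 to -0.12. Of these, MRPL49 alone kept its call under all 15 alternatives. MRPL57 lost it without miR-NC 3, MRPL51 without miR-19a 2 or miR-NC 1 (-0.09 each), MRPL24 without miR-19a 2, miR-19a 3, miR-NC 1 or miR-NC 3, and MRPL19 without miR-19a 1, miR-19a 2 or miR-NC 3. MRPL51 also lost its call under both limma fits on FPKM, keeping it in 11 of 15 alternatives. The alternatives lay between -0.23 and -0.14 for MRPL57, between -0.19 and -0.07 for MRPL24 and between -0.13 and -0.09 for MRPL19.

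In the small subunit, the lower members with the largest change were MRPS7, MRPS26, MRPS27, MRPS24 and MRPS12. MRPS7, whose bacterial counterpart organises the head of the small subunit, had 100.5, 101.6 and 110.2 CPM with miR-19a against 137.3, 132.6 and 146.1 CPM with miR-NC, a log2 fold change of -0.41 (SE 0.045). It has a 7mer-A1 in its coding sequence and none in the 3′ UTR used, and GGA3 and MIF4GD are annotated on the opposite strand. MRPS26, a mitochondria-specific protein that overlaps no other gene, had 79.9, 78.7 and 79.8 CPM with miR-19a against 107.0, 100.3 and 109.8 CPM with miR-NC (log2 fold change -0.41, SE 0.047). MRPS27, a pentatricopeptide repeat protein, had 101.0, 96.4 and 97.1 CPM with miR-19a against 125.4, 126.0 and 123.7 CPM with miR-NC (log2 fold change -0.35, SE 0.044). PTCD2 is annotated opposite to MRPS27, and RN7SL153P on its strand. MRPS7, MRPS26 and MRPS27 had separate groups, by margins well above the spread within either group. MRPS12, whose bacterial counterpart lies at the decoding centre, had 150.4, 154.2 and 162.9 CPM with miR-19a against 197.0, 175.5 and 186.1 CPM with miR-NC (log2 fold change -0.26, SE 0.042). SARS2 lies opposite to it, and since no source used here states a strand setting, reads of such pairs cannot be told apart. MRPS24, at -0.28 (SE 0.073), shares its strand with the read-through gene URGCP-MRPS24. MRPS2 and MRPS34 were called lower at -0.17 and -0.14 although their groups overlapped, and MRPS30 at -0.15 (SE 0.058) kept its call in 8 of 15 alternatives. MRPS34 lost its call without miR-19a 2 (-0.11), MRPS30 without miR-19a 1 (-0.14), miR-19a 3 (-0.10) or miR-NC 1 (-0.14), and MRPS2 without miR-19a 1 or miR-NC 3, with alternatives between -0.24 and -0.12.

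Higher members were fewer and their changes smaller. MRPL54, a mitochondria-specific protein of the large subunit, had 28.4, 28.9 and 27.9 CPM with miR-19a and 24.7, 23.4 and 21.7 CPM with miR-NC, a log2 fold change of 0.28 (SE 0.073). MRPL27, whose bacterial counterpart reaches the peptidyl transferase centre, had 83.2, 83.7 and 92.8 CPM with miR-19a and 74.1, 67.1 and 73.6 CPM with miR-NC (log2 fold change 0.27, SE 0.051). MRPL39 had 37.6, 39.6 and 37.4 CPM with miR-19a and 32.2, 30.7 and 33.8 CPM with miR-NC (log2 fold change 0.25, SE 0.065). None of these 3 overlaps another gene or has groups that overlap. MRPS28 was the higher small-subunit member with the larger change, at 50.1, 48.2 and 50.9 CPM with miR-19a and 42.0, 44.9 and 42.9 CPM with miR-NC (log2 fold change 0.20, SE 0.058). MRPL9, MRPL15 and MRPL41 had log2 fold changes of 0.19, 0.19 and 0.17, and MRPL23, MRPS15 and MRPL11 of 0.15, 0.15 and 0.14. The calls of MRPS15 and MRPL11 held in 8 of 15 alternatives each and that of MRPL23 in 13. In all, 17 members kept their call under all 15 alternatives, 10 lower (MRPL17 included) and 7 higher. MRPL23 lost its call without miR-19a 1 (0.14) or miR-NC 3 (0.13). MRPS15 lost it without miR-19a 1 (0.13), miR-19a 3 (0.13), miR-NC 2 (0.12) or miR-NC 3 (0.14), and MRPL11 without miR-19a 1 (0.15), miR-19a 2 (0.12), miR-NC 2 (0.11) or miR-NC 3 (0.14). These are log2 fold changes that stayed positive.

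The 5 tested members with a 7mer or 8mer in the 3′ UTR differed widely among themselves. They were MRPL17, whose fall put the family forward, and MRPL50, MRPL35, MRPL28 and MRPS25, with log2 fold changes of -0.43, -0.24, -0.08 and 0.00, of which MRPL50 and MRPL35 were called lower and none higher. The 70 tested members without such a match had a median of -0.03, with 15 lower (21.4%) and 10 higher (14.3%). Among all tested genes, 23.5% were lower and 24.9% higher. MRPL28, with a 7mer-m8 and a strand shared with TMEM8A, had 90.7, 84.1 and 91.1 CPM with miR-19a against 100.4, 86.0 and 93.5 CPM with miR-NC (log2 fold change -0.08, SE 0.050), and its groups overlapped; without miR-NC 2 it was called lower at -0.13. MRPS25 has a 7mer-A1 at base 2449 of its 3′ UTR. It had 85.7, 80.4 and 77.9 CPM with miR-19a against 82.5, 78.2 and 82.4 CPM with miR-NC (log2 fold change 0.00, SE 0.049). MRPS7, MRPS26, MRPS27 and MRPS12 were lower with no 7mer or 8mer in the 3′ UTR used. MRPL30 carries a 7mer-A1 but had a mean FPKM of 0.10, with 11, 4 and 5 reads in the miR-19a libraries and 4, 1 and 4 in the miR-NC libraries, and was not tested. MRPL53, at a mean FPKM of 3.56, was the lowest member that passed the filter.

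The subunits were alike in median change. Of 47 tested large-subunit members, 10 were lower and 8 higher (38.3% called) and the median log2 fold change was -0.03, and of 28 small-subunit members, 8 were lower and 2 higher (35.7% called) with a median of -0.05. These stand beside 48.4% called over all tested genes, 23.5% lower and 24.9% higher. The small-subunit count of 2 higher became 1 without miR-19a 1, without miR-19a 3, without miR-NC 2 or without miR-NC 3. With MRPL17 left out, the large subunit had 9 lower and 8 higher of 46, with a median of -0.03. The mean CPM was lower with miR-19a for 30 of 47 large-subunit and 16 of 28 small-subunit members. MRPS18A and MRPS30 sit in the large subunit in the known mammalian structure, and MRPS36 is now assigned to a dehydrogenase complex of the citric acid cycle. With these moved or left out, the large subunit had 11 lower and 8 higher of 49, the small subunit 7 lower and 2 higher of 25, and the medians were -0.03 and -0.05. MRPS18A at 0.11 (SE 0.069) and MRPS36 at 0.05 (SE 0.064) were not called.

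Members with a bacterial counterpart and mitochondria-specific members also had close medians. The 42 tested members classed as having a counterpart had 10 lower (MRPL17 included) and 7 higher (40.5% called). Their median log2 fold change was -0.03 (-0.02 among the 27 of the large subunit). The 33 members classed as mitochondria-specific, MRPS36 among them, had 8 lower and 3 higher (33.3% called), with a median of -0.05. Over all tested genes, 48.4% were called, 23.5% lower and 24.9% higher. These counts hold only for the classes as assigned here.

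Summed over members, the large subunit had 2861, 2832 and 2858 CPM in the miR-19a libraries and 2997, 2812 and 3003 CPM in the miR-NC libraries, and these ranges overlapped. The small subunit summed to 1869, 1853 and 1887 CPM with miR-19a and to 2034, 1949 and 2046 CPM with miR-NC, with no overlap. The ratio of the large to the small sum was 1.53, 1.53 and 1.51 with miR-19a and 1.47, 1.44 and 1.47 with miR-NC, and without MRPL17 it was 1.51, 1.51 and 1.496 with miR-19a and 1.43, 1.40 and 1.42 with miR-NC. The small sum differed by -140.2 CPM (miR-19a minus miR-NC), of which MRPS7, MRPS12, MRPS27 and MRPS26, taken because they had the 4 largest falls in CPM, made up -118.0 CPM. With these 4 left out, the small sum was 1438, 1422 and 1437 CPM with miR-19a. It was 1467, 1415 and 1481 CPM with miR-NC, and these ranges overlapped. The ratio of the large sum to this smaller sum was 1.990, 1.992 and 1.989 with miR-19a. With miR-NC that ratio was 2.043, 1.987 and 2.028, and these ranges overlapped too. The 4 were picked by their fall in these same libraries, and only the small sum was trimmed. A smaller difference without them was therefore set in advance, and nothing is concluded from it. A ratio of sums was not tested, because the members were chosen with the results known. The whole family took 0.470%, 0.466% and 0.472% of counts with miR-19a and 0.506%, 0.477% and 0.510% with miR-NC. In bulk RNA, fewer cells of a kind and less RNA per cell cannot be told apart.

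The family was expressed at moderate to high levels. The median member had 23.1 FPKM in miR-NC cells, against 6.502 FPKM over all tested genes, and 71 members had a mean of 5 FPKM or more. By the mean over all 6 libraries, the highest were MRPS34 at 119.95 ± 7.21 FPKM with miR-19a and 134.0 ± 4.56 FPKM with miR-NC, and MRPL51 at 113.8 ± 6.26 FPKM with miR-19a and 126.3 ± 6.57 FPKM with miR-NC, both mitochondria-specific. By the same mean they were followed by MRPL33 at 92.4 ± 3.398 FPKM with miR-19a and 89.1 ± 8.13 FPKM with miR-NC, MRPS26 at 70.1 ± 0.537 FPKM with miR-19a and 94.3 ± 4.77 FPKM with miR-NC, and MRPS12 at 72.3 ± 2.99 FPKM with miR-19a and 87.3 ± 5.21 FPKM with miR-NC. Within a group the order was not the same: with miR-19a, MRPL15 at 80.4 FPKM and MRPL41 at 75.5 FPKM stood above MRPS12 and MRPS26, and with miR-NC, MRPS26 stood above MRPL33. The lowest tested members were MRPL53 at 3.38 FPKM with miR-19a and 3.74 FPKM with miR-NC, MRPL38 at 3.63 and 3.80, MRPL46 at 4.34 and 4.22, MRPS17 at 4.36 and 4.92, and MRPL48 at 5.57 and 5.81 in the same order of groups. Of these, MRPL53, MRPL38, MRPL46 and MRPS17 share their strand with another annotated gene, and MRPL48 does not. How reads of such pairs were counted is not stated, and its part in these levels was not tested. In the miR-NC order, 54 of 75 neighbouring pairs differed by less than the larger of their SDs, so the order is loose.

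MRPL17 changed its place in this order. It had 16.3, 15.6 and 15.5 FPKM with miR-19a and 40.7, 35.5 and 42.7 FPKM with miR-NC. By group mean it ranked 50th of the 76 members with miR-19a and 17th with miR-NC, and relative to the median member it stood at 0.694, 0.673 and 0.645 with miR-19a and at 1.73, 1.63 and 1.82 with miR-NC. Levels between genes depend on the length used. The length implied by the deposited FPKM was between 0.299 and 6.72 times (median 1.46) that of the transcript with the longest coding sequence in GENCODE v29, and 6 of the 10 highest members were shared when the levels were computed with that length.

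**Figure D4:**
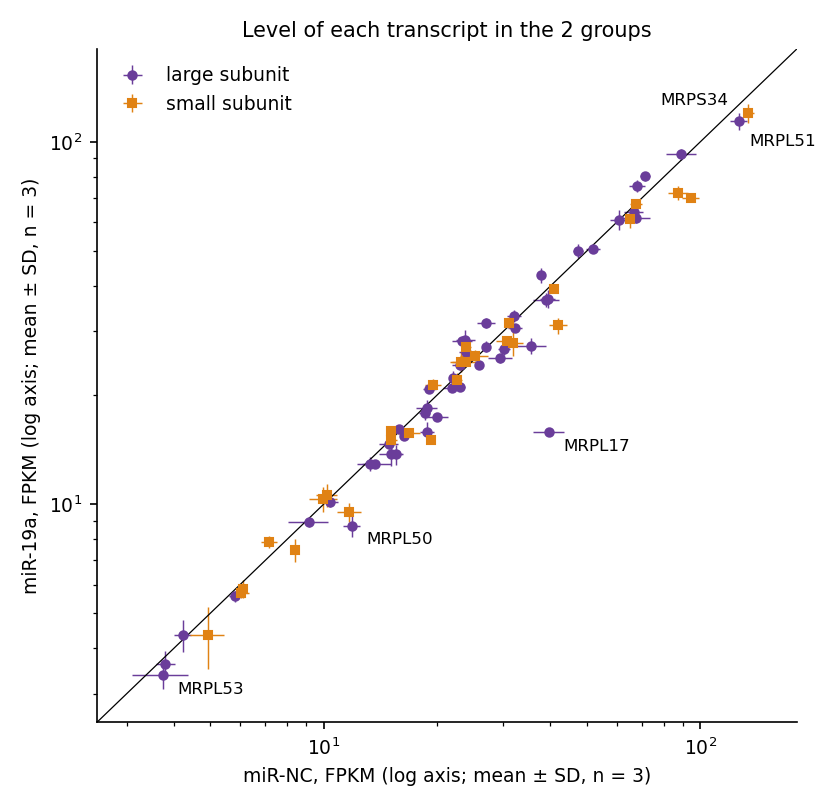
FPKM of each tested member (log axes; mean ± SD, n = 3) with miR-19a on the vertical axis and miR-NC on the horizontal axis, large subunit as circles and small subunit as squares, with the line of equality. Members lie near the line between about 3.38 and 134.0 FPKM, and MRPL17 lies well below it, at 15.8 FPKM with miR-19a and 39.7 FPKM with miR-NC.

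The other proteins and factors of mitochondrial translation had medians near 0 on the log2 scale, and their counts stand beside 23.5% lower and 24.9% higher over all tested genes. Of 5 mitoribosomal proteins with other names, 1 was lower and 2 higher, and the median log2 fold change was -0.05. PTCD3, a small-subunit protein that has an 8mer, had 91.3 ± 3.32 CPM with miR-19a and 109.3 ± 2.16 CPM with miR-NC (log2 fold change -0.26, SE 0.046, edgeR adjusted p = 2.0e-06), and DAP3, a small-subunit protein, had 136.9 ± 1.91 CPM with miR-19a and 119.0 ± 3.59 CPM with miR-NC (log2 fold change 0.20, SE 0.043, edgeR adjusted p = 6.0e-05). AURKAIP1 rose by 0.11 (SE 0.048, edgeR adjusted p = 0.0484), a call kept in 4 of 15 alternatives and lost, among others, without any one of the 3 miR-19a libraries or miR-NC 2.

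Of 25 assembly factors tested, 8 were lower and 1 higher (36% called, against 48.4% of all tested genes), with a median of -0.09, and 5 were lower without miR-NC 1. MTERF3, which takes part in biogenesis of the mitochondrial ribosome, had 18.5 ± 0.668 CPM with miR-19a and 26.3 ± 2.36 CPM with miR-NC (log2 fold change -0.50, SE 0.080, edgeR adjusted p = 2.0e-07). NOA1, a GTPase, and DHX30, a helicase, were lower by -0.35 (SE 0.074) and -0.20 (SE 0.047), while NGRN, which has a 7mer-A1, was higher by 0.17 (SE 0.051); without miR-NC 3 the higher count was 2. Of 16 translation factors, 6 were lower and 1 higher (43.8% called), with a median of -0.11. MRRF, the ribosome recycling factor, which has a 7mer-A1, had 42.2 ± 0.639 CPM with miR-19a and 56.6 ± 0.772 CPM with miR-NC (log2 fold change -0.42, SE 0.057, edgeR adjusted p = 2.7e-09). LRPPRC, which stabilises mitochondrial messenger RNAs, and the elongation factor TUFM were lower by -0.31 (SE 0.038) and -0.17 (SE 0.037), and the elongation factor GFM1 was higher by 0.19 (SE 0.048). The higher count of 1 was 2 without miR-19a 1 or without miR-NC 1.

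Of 11 tested regulators of mitochondrial transcription and biogenesis, 4 were lower and 2 higher (54.5% called), with a median of -0.07. The transcription proteins TFB2M (with a 7mer-A1) and POLRMT, the mitochondrial RNA polymerase, were lower by -0.31 (SE 0.061) and -0.25 (SE 0.055), and MYC was lower by -0.20 (SE 0.042). TFAM, which packages mitochondrial DNA, and the coactivator PPARGC1B, which has an 8mer, were higher by 0.23 (SE 0.048) and 0.37 (SE 0.086).

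Among the 13 messenger RNAs encoded in mitochondrial DNA, which the mitochondrial ribosome translates, 9 were lower and 1 higher (76.9% called, against 48.4% of all tested genes), and the median log2 fold change was -0.14. Their summed share of counts was 5.00%, 5.01% and 4.88% with miR-19a and 5.57%, 6.01% and 5.25% with miR-NC, with no overlap. Of the 9 lower, MT-ND2, MT-CO3 and MT-ATP6 had groups that overlapped and lost their calls under DESeq2 and both limma fits. With a library left out, 8 to 12 of the 13 were lower. MT-CO2, a subunit of cytochrome oxidase, MT-ND4 and MT-ND4L, subunits of complex I, had log2 fold changes of -0.25 (SE 0.040), -0.21 (SE 0.038) and -0.17 (SE 0.037). MT-ND6, transcribed from the opposite strand, was higher by 0.18 (SE 0.044), and its reads cannot be told from antisense RNA without strand. The ribosomal RNA MT-RNR2 was lower by -0.17 (SE 0.037) and MT-RNR1 had -0.02 and was not called, both in libraries selected for poly(A). The cytosolic ribosomal proteins moved least by this measure, with 6 lower and 7 higher of 78 (16.7% called) and a median of 0.01. The count of 6 was 15 without miR-NC 2 and 3 without miR-19a 1 or without miR-NC 3, and the count of 7 was 4 without miR-NC 2. RPL28 (0.23, SE 0.036), RPL31 (0.16, SE 0.038) and RPL9 (0.31, SE 0.075) were higher, and RPL29 (-0.24, SE 0.042), RPL13A (-0.17, SE 0.037) and RPL18 (-0.13, SE 0.037; not called without miR-NC 1) lower, all uncertain because these genes have many near-identical copies. The lists were compiled with earlier results of these data known, and no difference between lists was tested.

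**Figure D5:**
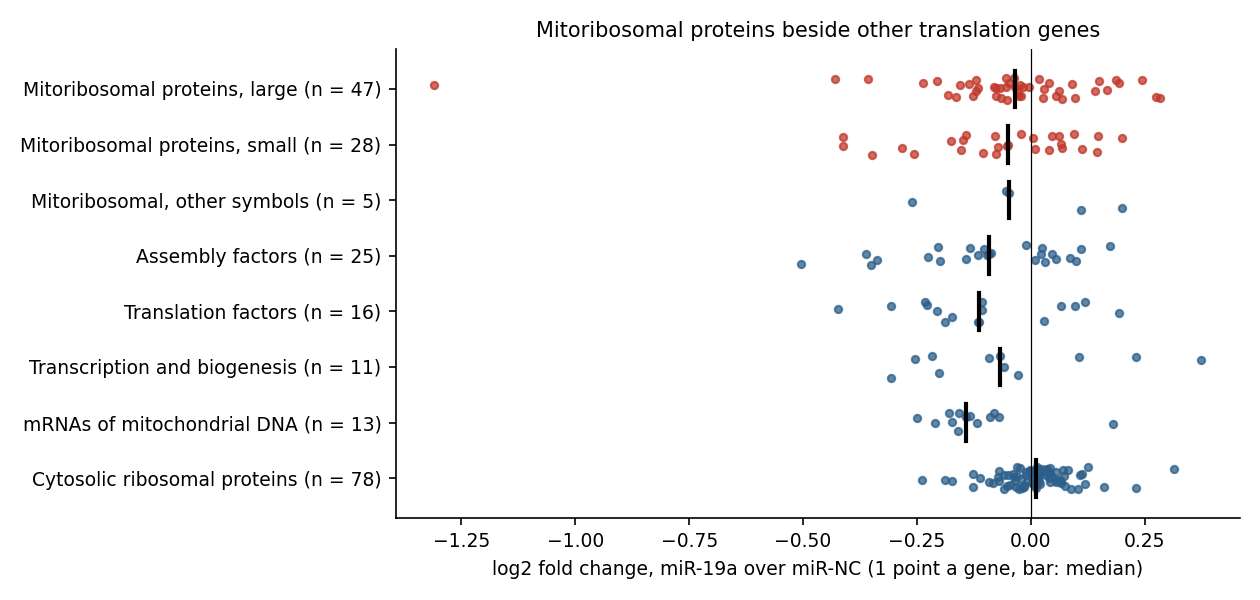
Log2 fold change of miR-19a over miR-NC for each tested gene (1 point a gene, bar at the median) of the mitoribosomal proteins (red) and of other gene lists (blue). Medians lie between -0.14 for the messenger RNAs of mitochondrial DNA and 0.01 for the cytosolic ribosomal proteins, and MRPL17 is the point at -1.31.

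Total counts lay between 15699037 and 17957932 per library. The chi-square per gene of 2 libraries ranged over 1.57 to 3.73 in the same group and over 22.6 to 25.4 across groups. miR-NC 2 stood somewhat apart, with 5.18% of counts in cytosolic ribosomal proteins against 5.66% and 5.69% in the other miR-NC libraries, and without it 21 members were lower and 8 higher. Of 10 epithelial and A549 markers 9 were tested, while EPCAM was near 0, at 0.763 FPKM with miR-19a and 0.603 FPKM with miR-NC. The keratins KRT8, KRT18 and KRT19 were higher with miR-19a (log2 fold changes of 0.28, 0.38 and 0.40), and ALDH3A1 (-1.28), NQO1 (-0.35), AKR1B10 (-0.27) and CDH1 (-0.17, a call kept in 8 of 15 alternatives) were lower. The summed level of this list was 16847, 16798 and 17079 CPM with miR-19a and 18642, 18688 and 18206 CPM with miR-NC, with no overlap, and its part in the members' results was not tested. Of 10 matched markers of other cell types, 9 were under the filter and COL1A1 alone passed, at 25.4 CPM with miR-19a and 8.86 CPM with miR-NC. CD3E (T cells) and HBB (red blood cells) had 0 reads in all 6 libraries, and PTPRC, LYZ, VWF, COL3A1, DCN and ALB had between 0 and 10 reads in each. The summed level of the list was 24.2 to 28.1 CPM with miR-19a and 8.45 to 10.3 CPM with miR-NC, nearly all of it COL1A1.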

How the data were processed

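The submitters' processing notes name bcl2fastq 2.17.1.14. No source used here states the aligner, counter, strand, annotation or build. Per the file headers, the deposited table has 1 column of counts (whole numbers, not normalized) and 1 of FPKM per library, and the authors' FPKM scale the counts by gene length and library size.

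The names table gave symbols for 39538 identifiers and GENCODE v29 for 12800 more, leaving 5567 without. The members and gene lists were chosen with earlier results of these data known. The identifiers of 2 family symbols, MRPL45 and MRPS21, were not matched and these genes are not analysed here. Of 74 pseudogene rows of the family, 57 had 0 reads and 2 (MRPL45P2 and MRPL3P1) a mean count of 10 or more, and 49 of the 76 members overlap another gene in GENCODE v29. In the assembly list MRM1 and RCC1L, and among markers PECAM1, matched no identifier. One marker is not reported here.

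edgeR 4.0.16 (R 4.3.3; quasi-likelihood test, two-sided, TMM factors) was run on the counts of the 12452 genes whose mean FPKM reached 1, with Benjamini-Hochberg adjustment over all of them. The common biological coefficient of variation was 0.0352. The SE was derived from the log2 fold change and the F statistic (size of the change divided by the root of F). The script was first run on simulated counts, and no error rate is taken from that run. P-values reflect only how these samples vary, which may be technical variation, since separate cultures are not stated. Alternatives were RLE factors, library totals, DESeq2 1.42.0, limma 3.58.1 on log2(FPKM + 1) and log2(FPKM + 0.1), other filters, a replicate block and each library left out. Levels with coding-transcript length were added after seeing the data. 3′ UTRs and sites are from GENCODE v29. Genes named are MRPL17, the 10 largest called rises and falls, the 5 highest and 5 lowest tested levels, members with a 7mer or 8mer, members under the filter, MRPS18A, MRPS30 and MRPS36, and in each other list at most 3 called rises and 3 called falls. MRPL57, MRPS2, MRPL49, MRPL24, MRPL19, MRPL42, MRPL15 and MRPL41 among the levels, the markers and the members with coding-sequence matches were named after their values were seen.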

Additional observations from a re-analysis of the deposited data

How the results depend on the processing

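Of the 60 genes taken by the naming rule, 47 kept their status (lower, higher or not called) under every one of the 15 alternatives that gave a value. Over all 895 such values, 848 kept that status, 46 lost the call, 1 gained a call and 0 were called in the opposite direction. The sign of a gene that was not called could change, as for MRPS25, whose alternatives lay between -0.034 and 0.035. Of the lower members named outside the rule, MRPL49 kept its call in 15 of 15 alternatives, MRPL57 in 14, MRPS2 and MRPL19 in 11 each and MRPL24 in 7. Leaving out each library in turn gave 14 to 21 lower and 7 to 11 higher members, 7 to 13 lower and 6 to 8 higher in the large subunit, and 6 to 8 lower and 1 to 3 higher in the small. The difference of medians, large minus small, was 0.016 on the log2 scale with all libraries and between -0.0094 and 0.038 with one left out, so it has no stable sign; in the subunit split by structure it was 0.017. Small-subunit members called higher were 1 under DESeq2 and both limma fits. The other-named mitoribosomal proteins called higher were 1 under RLE factors, library totals alone, DESeq2, both limma fits, no filter and a mean FPKM of at least 5, and 1 to 2 with a library left out. Both limma fits gave 0 higher translation factors, 0 higher messenger RNAs of mitochondrial DNA and 3 higher cytosolic ribosomal proteins, and 1 higher regulator of biogenesis was left by limma on log2(FPKM + 0.1) and by a mean FPKM of at least 5. With a library left out, the assembly factors had 5 to 9 lower and 1 to 2 higher, the translation factors 1 to 2 higher, and the cytosolic ribosomal proteins 3 to 15 lower and 4 to 10 higher. The summed level of the family in miR-19a over miR-NC was 0.950 in FPKM and 0.976 in TPM computed from FPKM. The cause of these shifts was not tested.

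Same-numbered libraries did not deviate together (correlations of 0.00848, 0.000547 and -0.0310 for numbers 1 to 3). With 3 libraries per group, these values cannot show whether same-numbered samples were handled together. With the replicate block, 18 members were lower and 10 higher. MRPL30 had 1 to 11 reads per library, too few to read a change from. It shares its strand with the annotated genes AC079447.1 and AC092587.1, and the cause of its low count was not tested.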
